A study of Rattus norvegicus with 6 samples.

Results

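The miR-200 family consists of 5 small hairpins, and 8 of the 842 miRNAs counted in rat orbitofrontal cortex come from them. They are rno-miR-200a-3p, rno-miR-200a-5p, rno-miR-200b-3p, rno-miR-200b-5p, rno-miR-200c-3p, rno-miR-141-3p, rno-miR-141-5p and rno-miR-429, written without the species prefix from here on. They were taken by name, and the family itself was selected on its read counts, which earlier results of these data had shown to differ widely between libraries. Its levels and their spread are therefore given as a description, and nothing is supported with them.

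The orbitofrontal cortex, the part of the frontal lobe above the eyes that takes part in valuing choices, was taken from adult male Sprague Dawley rats, an outbred stock. The injured group held 3 rats that had repeated mild controlled cortical impact, in which a piston strikes the brain, in surgeries on days 1, 4 and 7. The impact speed was 5 m/s and the depth set was 2 mm. The sham group held 3 rats that had surgery on the same days with no impact. All tissue was taken on day 42, and each library is described as a separate biological replicate. The labels name no genotype, batch or pairing, and replicate numbers only name libraries. Libraries held 17244114 to 22311086 counted reads in injured and 12538288 to 23680840 in sham animals. The most abundant member of a list of cortical neuron miRNAs, miR-9a-5p, had 185530 to 218940 CPM in injured and 182300 to 225520 CPM in sham animals. CPM is reads per 1000000 of a library, after its total was adjusted by the TMM method.

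Members of the miR-200 family are best known as keepers of the epithelial state. They repress the transcription factors ZEB1 and ZEB2, which shut down epithelial genes such as E-cadherin, and ZEB1 and ZEB2 in turn repress the miR-200 genes. In the adult rodent brain the family is known mainly from the olfactory system, where it takes part in the differentiation of olfactory neurons. A miRNA recognises its targets mainly by its seed, bases 2 to 8 from the 5′ end, so members with the same seed share many predicted targets.

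The hairpins lie in a pair of genomic clusters. On chromosome 5, Mir200b, Mir200a and Mir429 follow each other within 1908 bases of the minus strand in the rat assembly GRCr8. This stretch overlaps the annotated spans of Ttll10, a tubulin glycylase family gene, and of LOC106182250. On chromosome 4, Mir200c and Mir141 lie within 509 bases of the minus strand, between the protein-coding genes Phb2 and Ptpn6. The annotation used gives no exon or intron for either place. The authors' own build was rn6, from which no coordinates were used.

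Mature sequences from RefSeq (GRCr8) were matched for 5 of the 8 members. They are shown because the members differ by few bases, which bears on how reads can be assigned to them. Capitals mark the seed. The 3p sequences of miR-200c, at chr4:159209969-159209989, and of miR-141, at chr4:159209540-159209561, represent the seed groups of the family, both on the minus strand.
miR-200c-3p: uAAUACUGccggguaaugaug
miR-141-3p: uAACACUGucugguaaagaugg
The 5p sequences of miR-200a, at chr5:171930770-171930790, of miR-200b, at chr5:171931548-171931569, and of miR-141, at chr4:159209584-159209605, are also on the minus strand.
miR-200a-5p: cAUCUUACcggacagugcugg
miR-200b-5p: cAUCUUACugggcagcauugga
miR-141-5p: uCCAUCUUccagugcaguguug

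Over 21 shared positions counted from the 5′ end, miR-200c-3p and miR-141-3p differed at 4, written with the miR-200c-3p base first: U4C in the seed, and C9U, G11U and U17A outside it. The 7 letters AAUACUG, the miR-200c-3p seed, were found on their own strand in the hairpins of Mir200c, Mir200b and Mir429, and in 0.955% of the 419 hairpins of the table. The letters AACACUG, the miR-141-3p seed, were found in the hairpins of Mir141 and Mir200a, and also in 0.955% of the 419. Each genomic cluster therefore holds both seeds. The 5p sequences of miR-200a and miR-200b had the same seed and differed at 5 of 21 positions, C9U, A12G, U16C, G17A and C18U, with the miR-200a-5p base first. Members this alike may share reads, and the handling of reads that match several names is not stated in the labels. The 3p members of different clusters whose hairpins hold the same seed, such as miR-200b-3p and miR-200c-3p, were not compared. Mature sequences were not matched for miR-200a-3p, miR-200b-3p and miR-429. Reads shared between such members would change the cluster shares given below.

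The chromosome 5 cluster carried most of the family's reads. miR-200a-3p had 45, 12944 and 1448 reads in injured replicates 1, 2 and 3, against 19998, 371 and 2823 reads in sham replicates 1, 2 and 3. In CPM this was 2.09, 815 and 62.8 in injured and 1564, 20.7 and 105.0 in sham animals. Sham replicate 1 and injured replicate 2 were high, injured replicate 1 was low, and the groups overlapped. miR-200b-3p had 67, 11522 and 1082 reads in injured and 19702, 358 and 1867 reads in sham replicates 1, 2 and 3. miR-429 had 13, 2150 and 218 reads in injured and 4204, 79 and 395 reads in sham replicates. Both had their 6 libraries in the same order as miR-200a-3p, from sham replicate 1 through injured replicate 2, sham replicate 3, injured replicate 3 and sham replicate 2 to injured replicate 1.

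The highest library exceeded the lowest by 747-fold for miR-200a-3p, with a 95% counting interval of 558 to 1024. For miR-200b-3p the ratio was 494-fold (389 to 638) and for miR-429 it was 544-fold (318 to 1022). These intervals treat each read as independent and leave out variation between animals. Reads without molecular identifiers are not independent molecules, so the intervals may be too narrow even for counting error.

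The chromosome 4 cluster was scarcer in all 6 libraries. miR-200c-3p had 38 to 571 reads in injured and 46 to 1101 reads in sham animals. In CPM this was 1.77, 35.95 and 5.24 in injured replicates 1, 2 and 3, against 86.1, 2.56 and 7.55 in sham replicates 1, 2 and 3. Its libraries stood in the order given for miR-200a-3p, but its highest library exceeded its lowest by only 48.7-fold (35.3 to 69.2). miR-141-3p had 2, 49 and 3 reads in injured and 98, 7 and 17 reads in sham replicates. Sham replicate 1 and injured replicate 2 were again its highest libraries, and the ratio of highest to lowest, which rests on 2 reads in injured replicate 1, was 82.4-fold with an interval of 22.2 to 690.

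The minor strands rested on few reads. miR-200a-5p had 6, 575 and 72 reads in injured and 729, 18 and 132 reads in sham replicates 1, 2 and 3, in the same order of libraries as its 3p partner. miR-200b-5p had 0, 31 and 5 reads in injured and 50, 0 and 10 reads in sham replicates. In injured replicate 1 its 0 reads allow up to 0.140 CPM and in sham replicate 2 up to 0.167 CPM, taking 3 reads as the limit. With its 50 reads taken without counting error, sham replicate 1 was thus at least 28.0-fold higher than injured replicate 1. miR-141-5p, with 5, 15 and 10 reads in injured and 6, 12 and 6 reads in sham replicates, did not follow the rest. Its highest library was injured replicate 2 and its lowest sham replicate 3, at 0.944 and 0.223 CPM.

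**Figure D1:**
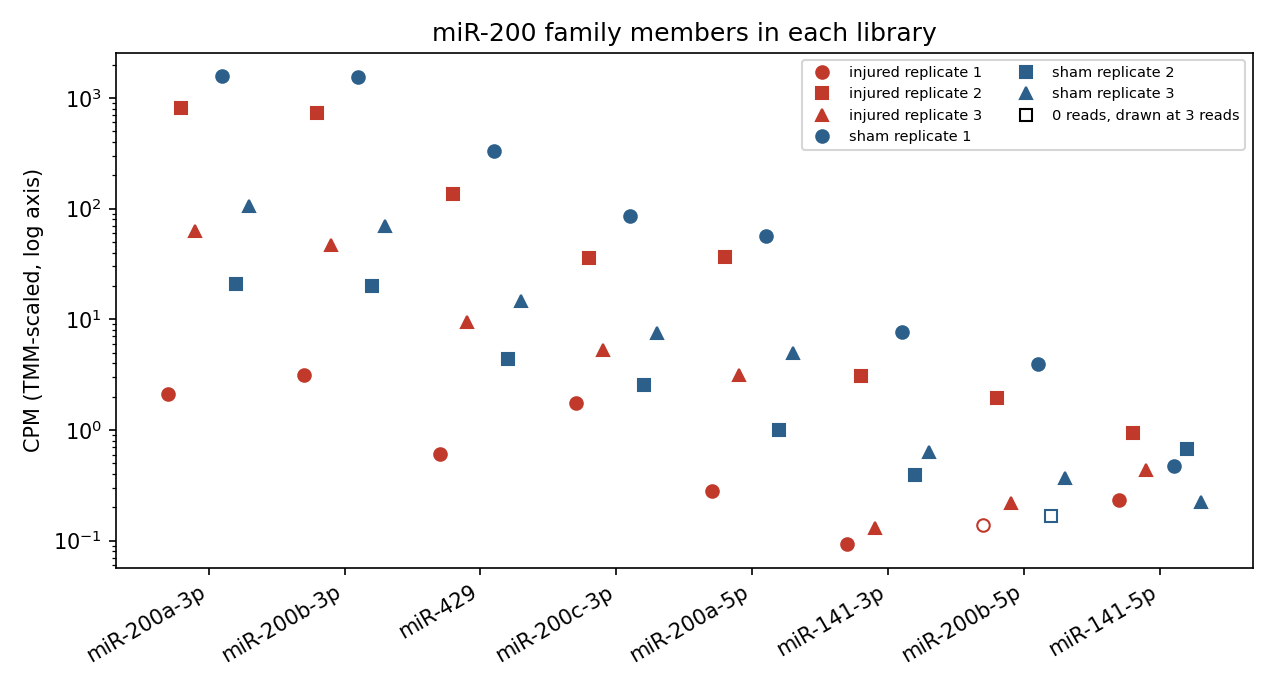
CPM (TMM-scaled, log axis) of the 8 members of the miR-200 family in each of 3 injured and 3 sham libraries, 1 point a library, with open symbols where a library had 0 reads and is drawn at the level of 3 reads. In 7 members sham replicate 1 (blue circle) lies highest and injured replicate 2 (red square) next, and miR-141-5p spans only 0.223 to 0.944 CPM.

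Summed over the 8 members, the family reached 8.19, 1754 and 128.3 CPM in injured replicates 1, 2 and 3, against 3589, 49.6 and 202.8 CPM in sham replicates 1, 2 and 3. The median was 128.3 CPM in injured and 202.8 CPM in sham animals, and the mean was 630 ± 975.1 CPM in injured and 1280 ± 2001 CPM in sham animals (SD, n = 3 each). The SD exceeded the mean in both groups. The family took 0.000789% to 0.162% of reads in injured and 0.00458% to 0.366% in sham animals, so that even at its highest it was a minor part of a library. In a bulk sample, fewer cells of a type and less RNA per cell cannot be told apart. The shallowest library was sham replicate 1 and the next shallowest injured replicate 2, which were also highest in the family, whereas the deepest, sham replicate 3, was the third highest. The part of depth in the family's level was not tested.

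The members stood in a similar but not the same order of abundance within libraries, with most exceptions in injured replicate 1 and among the scarcest rows. By mean CPM over the 6 libraries the order was miR-200a-3p (428), miR-200b-3p (401), miR-429 (82.2), miR-200c-3p (23.2), miR-200a-5p (17.1), miR-141-3p (2.00), miR-200b-5p (1.08) and miR-141-5p (0.495). Only sham replicates 1 and 3 had all members in this order. The sequences matched were 21 or 22 bases long, so counts were compared without a length term. miR-200a-3p and miR-200b-3p, neighbours in this order, were not separated beyond their spread, at a log2 ratio of 0.11 ± 0.40 (mean ± SD over 6 libraries). miR-200a-3p was the higher in 5 of 6 libraries and the lower in injured replicate 1, where 45 and 67 reads gave it 40.2% of their sum (exact binomial 95% interval 31.03% to 49.9%). In sham replicate 3 it made up 60.2% of the sum (58.8% to 61.6%) and in sham replicate 1 50.4% (49.9% to 50.9%).

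miR-200b-3p and miR-429 kept the closest proportion of the 15 pairs compared among the 6 most abundant members. Their log2 ratio was 2.29 ± 0.09 over the 6 libraries, with a range of 2.18 to 2.42, although the reads of miR-429 ran from 13 to 4204. miR-429 and miR-200c-3p, the next neighbours in the order, were not separated beyond their spread, at 0.81 ± 1.27. miR-200c-3p exceeded miR-429 in injured replicate 1, with 38 against 13 reads. miR-200c-3p and miR-200a-5p differed by 1.00 ± 0.93, and in injured replicate 2 they had 571 and 575 reads.

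The balance of the clusters differed between libraries of the same group. Rows from the chromosome 4 cluster, miR-200c and miR-141, made up 45 of 176 family reads in injured replicate 1, which is 25.6% (exact binomial 95% interval 19.3% to 32.7%). They made up 2.28% (2.11% to 2.46%) in injured replicate 2 and 4.53% (3.81% to 5.34%) in injured replicate 3. In sham replicates 1, 2 and 3 the share was 2.63% (2.48% to 2.78%), 7.29% (5.68% to 9.20%) and 4.14% (3.63% to 4.71%). The interval of injured replicate 1 lay above those of the 5 other libraries, and the groups overlapped. These intervals do not cover reads that may be shared between like members of different clusters.

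The share ran opposite to the family's level. The libraries lowest in the family, injured replicate 1 and then sham replicate 2, had the highest shares, and the libraries highest in the family had the lowest, with only sham replicate 1 and injured replicate 2 out of strict reverse order. Between the extreme libraries, the chromosome 5 cluster spanned 573-fold in CPM and the chromosome 4 cluster 45.0-fold, or 50.4-fold without miR-141-5p. Among injured animals, replicate 2 exceeded replicate 1 by 281-fold for the chromosome 5 and 19.1-fold for the chromosome 4 cluster. Among sham animals, replicate 1 exceeded replicate 2 by 76.0-fold and 26.0-fold for the same clusters. Level and share come from the same reads, so their relation is given as a description, with no test.

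**Figure D2:**
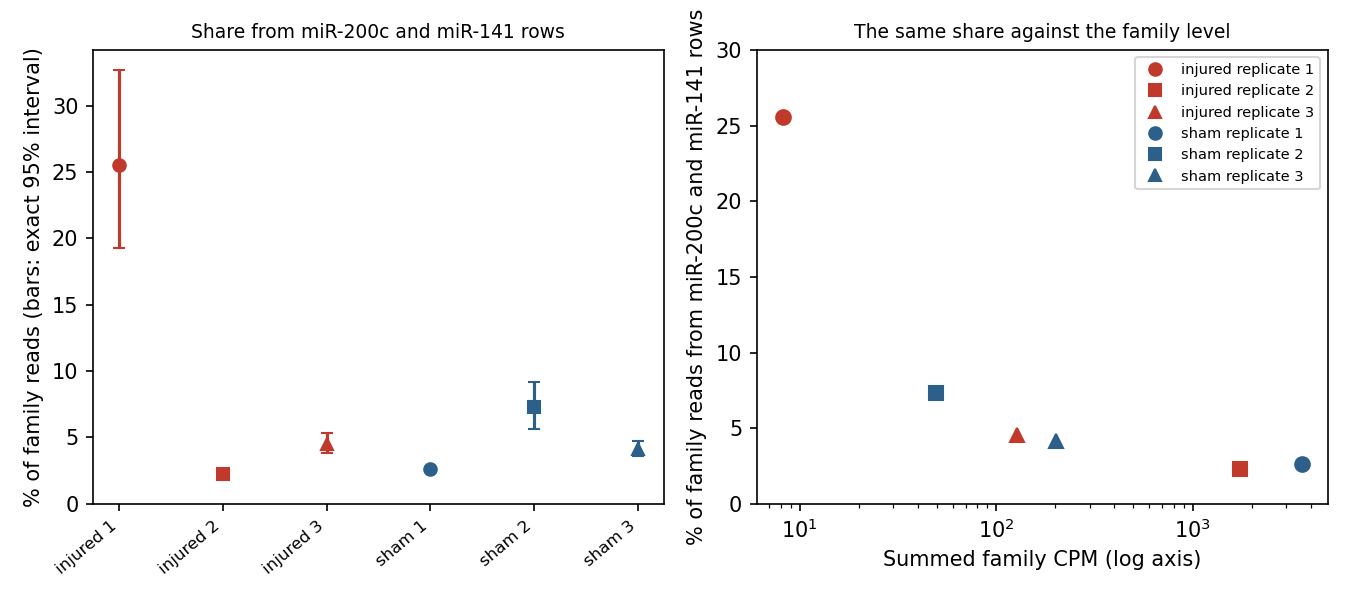
Left, percent of family reads from the miR-200c and miR-141 rows in each library, with exact binomial 95% intervals, and right, the same percent against summed family CPM on a log axis. Injured replicate 1, the lowest library at 8.19 CPM, stands at 25.6%, and the 5 other libraries lie between 2.28% and 7.29%.

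Both seed groups were present at similar levels in most libraries. Among 3p reads with miR-429 included, miR-200a-3p and miR-141-3p together held 28.5%, 47.7% and 50.5% in injured replicates 1, 2 and 3, against 44.6%, 43.9% and 53.5% in sham replicates 1, 2 and 3. The interval of injured replicate 1 was 21.7% to 36.0%, below the lowest bound of any other library, 40.6% in sham replicate 2.

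The 3p strand led in all 6 libraries for miR-200a and miR-200b, but not for miR-141. The 5p strand made up 11.8%, 4.25% and 4.74% of miR-200a reads in injured replicates 1, 2 and 3, against 3.52%, 4.63% and 4.47% in sham replicates 1, 2 and 3. The first of these rests on 6 of 51 reads, with an exact interval of 4.44% to 23.9%. It lay above that of sham replicate 1, 3.27% to 3.78%, and overlapped those of all other libraries. The interval of injured replicate 2, 3.92% to 4.61%, also lay above that of sham replicate 1. For miR-200b the 5p share was 0.268% in injured replicate 2 and 0.460% in injured replicate 3, and 0.253% and 0.533% in sham replicates 1 and 3, with 0 of 67 and 0 of 358 reads in the other two libraries. The 0 reads allow a 5p share of up to 5.36% in injured replicate 1 and 1.03% in sham replicate 2 (upper exact bounds).

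For miR-141 the leading strand changed with the library. The 5p strand held 71.4% of 7 reads, 23.4% of 64 and 76.9% of 13 in injured replicates 1, 2 and 3, against 5.77% of 104, 63.2% of 19 and 26.1% of 23 reads in sham replicates 1, 2 and 3. It led in the 3 libraries with the lowest family level. The exact intervals were wide, at 29.0% to 96.3% in injured replicate 1, 46.2% to 94.96% in injured replicate 3 and 38.4% to 83.7% in sham replicate 2, and these 3 included equal use of the strands.

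**Figure D3:**
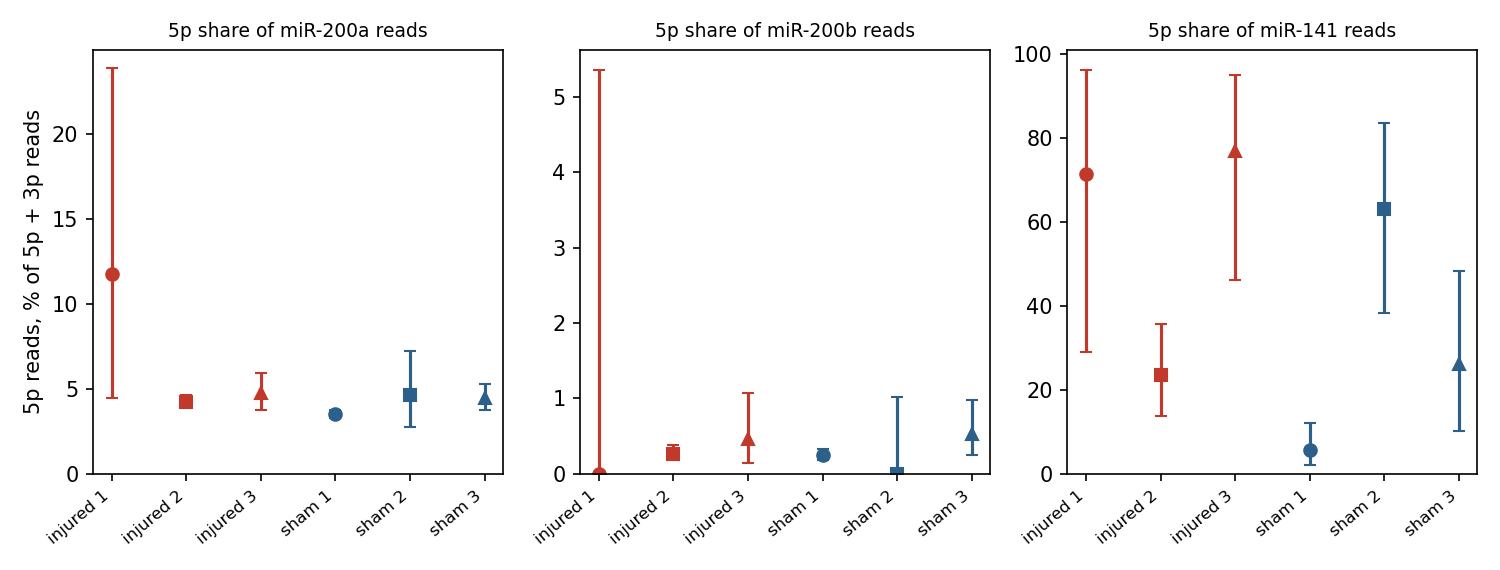
Reads of the 5p strand as a percent of 5p plus 3p reads for miR-200a, miR-200b and miR-141 in each library, with exact binomial 95% intervals and a separate axis in each panel. miR-200a stays between 3.52% and 11.8%, miR-200b is at or below 0.533%, and miR-141 ranges from 5.77% to 76.9%.

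A further name counted in the table, miR-3548, cannot be told apart from miR-200a-5p. Its RefSeq sequence lies on the plus strand at chr5:171930771-171930792, opposite miR-200a-5p, and is complementary to it over 20 bases. It is shown in the 5′ to 3′ direction of its own strand, with its bases 2 to 8 in capitals.
miR-3548: cAGCACUGuccgguaagaugcc
miR-3548 had 6, 526 and 63 reads in injured and 652, 16 and 113 reads in sham replicates 1, 2 and 3. These were 100.0%, 91.5% and 87.5% of the miR-200a-5p reads in injured and 89.4%, 88.9% and 85.6% in sham replicates. The labels do not say that counting used strand, so reads under both names may come from the same RNA.

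Injured and sham animals were compared over all miRNAs with edgeR's quasi-likelihood test, and 6 of the 8 members passed its filter on low counts, all but miR-141-5p and miR-200b-5p. Of these 6, 0 were called at an adjusted p of 0.05, where 0% of the 534 miRNAs tested were called, and nothing is read from this count. At an unadjusted p under 0.05 there were 12 of the 534 and 0 of the 6. DESeq2 called 0 and had 19 at an unadjusted p under 0.05. The groups overlapped for all 8 members, while they did not overlap for 7.87% of the miRNAs tested.

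All 6 tested members had a negative log2 fold change, injured over sham, beside 54.3% of all miRNAs tested. Their median was -1.12, and that of all miRNAs tested was -0.03. The members stand in the same order of libraries, so they do not give 6 separate observations. The edgeR value was farthest from 0 for miR-141-3p, which averaged 1.10 ± 1.72 CPM in injured and 2.90 ± 4.13 CPM in sham animals (SD, n = 3 each). This gave a log2 fold change of -1.41, with a 95% interval of -4.89 to 2.07 and an adjusted p of 0.878 from edgeR. miR-200a-3p averaged 293 ± 453 CPM in injured and 563 ± 868 CPM in sham animals, and its log2 fold change was -0.94 (95% interval -5.43 to 3.54). The other 4 had log2 fold changes of -1.26 for miR-429, -1.16 for miR-200c-3p, -1.07 for miR-200b-3p and -0.67 for miR-200a-5p. The adjusted p-values of the 6 lay between 0.878 and 0.926. In limma on log2(TPM + 1) the order differed, with -1.55 for miR-200a-3p farthest from 0 and -0.70 for miR-141-3p. DESeq2 gave no p-value for miR-200b-3p and miR-429.

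The direction turned when a single sham library was left out. Without sham replicate 1 all 6 log2 fold changes were positive, from 1.07 for miR-141-3p to 2.60 for miR-200b-3p, with adjusted p-values of 0.827 to 0.864 from edgeR. Without injured replicate 2 they lay between -3.18 for miR-200c-3p and -4.56 for miR-141-3p, at an adjusted p of 0.996. With both of these libraries left out, miR-141-3p did not pass the filter and the other 5 lay between -0.91 and -0.50, at an adjusted p of 0.99.

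**Figure D4:**
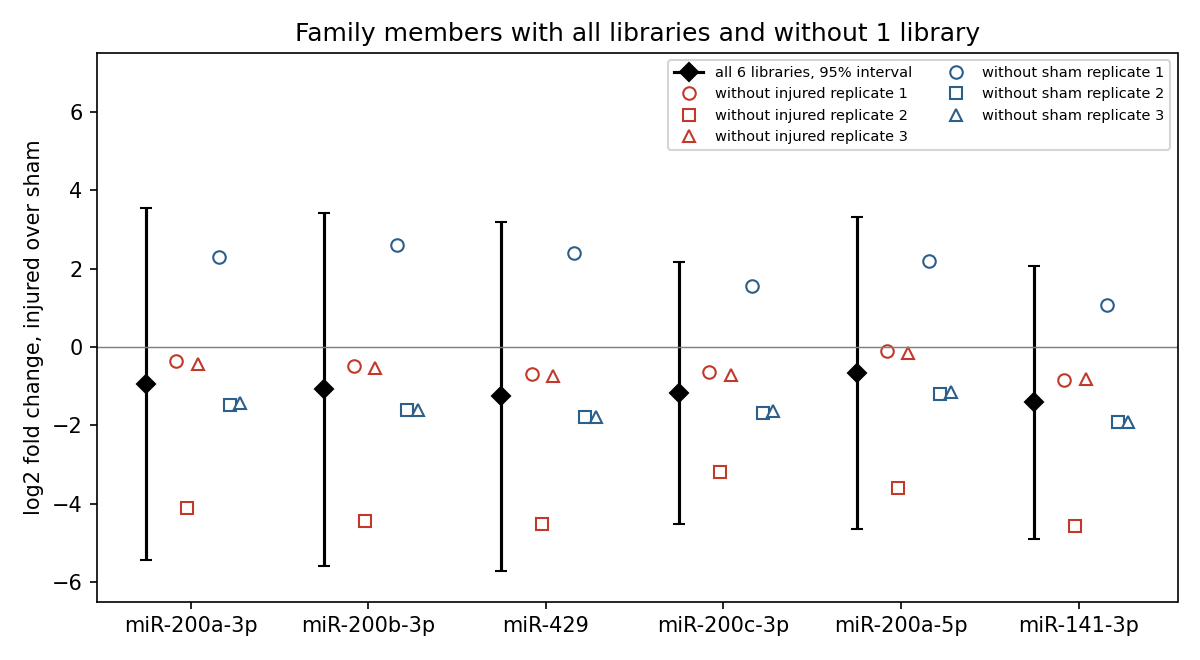
Log2 fold change, injured over sham, of the 6 tested members with all libraries (diamonds, 95% interval from edgeR) and without each library in turn (open symbols). Every interval includes 0, the values without sham replicate 1 lie between 1.07 and 2.60, and those without injured replicate 2 lie between -4.56 and -3.18.

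The spread within groups placed the family among the most variable miRNAs of the table. The pooled SD of log2 CPM within groups was 3.76 for miR-200a-3p, 3.58 for miR-200b-3p, 3.51 for miR-429, 3.09 for miR-200a-5p, 2.38 for miR-200c-3p and 2.21 for miR-141-3p. The median over the 534 miRNAs tested was 0.29, and 95% had at most 0.90. The 6 members ranked 2 to 5, 8 and 9 of 534. This spread is what the family was selected on, so the ranks are a description.

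The miRNAs outside the family with the most similar profile included miR-183-5p and miR-182 of the miR-183 cluster, which is known from sensory cells, including those of the retina and inner ear. Likeness was measured as Pearson's r between a miRNA's log2 CPM and the log2 summed CPM of the family over the 6 libraries, for 523 other miRNAs. It is given with no p, since the highest values were picked from all of them. miR-3548 came first at 0.99, followed by miR-183-5p and miR-3553 at 0.94 each, the predicted miRNAs listed as novel_4 and novel_95 at 0.87 each, and miR-182 at 0.86. Spearman's rho in the same order was 1, 0.94, 0.94, 0.89, 0.83 and 0.94. miR-3548 cannot be told apart from miR-200a-5p, whose reads are part of the family's sum, so its likeness is no separate observation. The points share their libraries and so their depth. miR-96-5p, the third tested miRNA of the miR-183 cluster, had an r of 0.70 and a rho of 0.66 and is not among these 6. Without sham replicate 1 and injured replicate 1, the libraries farthest from the median level, r over the other 4 was 0.99 for miR-183-5p, 0.92 for miR-182, 0.97 for novel_4 and 0.40 for novel_95. novel_4 spanned only 2.37 to 3.53 CPM in injured and 2.40 to 3.05 CPM in sham animals.

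miR-183-5p and miR-182 are shown because they are processed from hairpins of 1 cluster on chromosome 4, at chr4:59756106-59756127 and chr4:59752249-59752273 of the minus strand in GRCr8, far from Mir200c and Mir141. Capitals mark the seeds, which differ from those of the miR-200 family.
miR-183-5p: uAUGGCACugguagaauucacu
miR-182: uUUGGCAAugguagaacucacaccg
miR-3553 lies opposite miR-183-5p, is complementary to it over 22 bases and had 99.9% to 100.0% of its reads in each library, so it is no separate measurement.

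The miR-183 cluster had 5 counted members, of which 3 were tested and 0 were called. miR-183-5p had 461, 4356 and 1069 reads in injured and 5542, 273 and 1802 reads in sham replicates 1, 2 and 3. miR-182 had 883, 3063 and 1093 reads in injured and 6259, 312 and 2813 reads in sham replicates. miR-96-5p, a further product of the cluster, had 56 to 265 reads in injured and 25 to 369 reads in sham animals. Sham replicate 1 and injured replicate 2 were the highest libraries for all 3, as for the miR-200 family, but their lowest library was sham replicate 2 and not injured replicate 1. The ratio of highest to lowest library was 28.5-fold for miR-183-5p, 28.2-fold for miR-182 and 20.7-fold for miR-96-5p. The cluster summed to 69.0 to 484 CPM in injured and 33.98 to 952 CPM in sham animals, and no member tested had groups that did not overlap. Its part in the level of the miR-200 family was not tested.

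The family exceeded miR-183-5p in 5 of 6 libraries and fell below it in 1. In injured replicate 1 the family had 176 reads and miR-183-5p 461. In sham replicate 1 the family had 45888 reads and miR-183-5p 5542.

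Epithelial miRNAs outside the family spanned a narrow range. Their list, with miR-203a, miR-203b, miR-205 and miR-31a, had 7 of 7 members tested and 0 called. Its sum ran from 68.6 to 101 CPM in injured and from 84.1 to 92.9 CPM in sham animals, a ratio of highest to lowest library of 1.47. miR-203a-3p, a miRNA of skin epithelium and its most abundant member, had 29.7, 27.6 and 39.7 CPM in injured and 36.5, 32.8 and 32.8 CPM in sham replicates 1, 2 and 3. Of the 7 members of the list, 0 ranged over more than 4-fold between libraries. The groups did not overlap for 1 of the 7, beside 7.87% of all miRNAs tested. miR-203a-3p had 638, 439 and 917 reads in injured and 467, 589 and 881 in sham replicates 1, 2 and 3. miR-203b-5p ran in parallel, with 513, 368 and 813 reads in injured and 397, 519 and 743 in sham replicates. Whether these rows share reads was not tested, so the 7 may not be separate measurements.

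The summed CPM of 6 lists of markers of other tissues and blood cells, which follows the lead member of each list, spanned 1.13-fold to 3.95-fold between libraries. Every one of the 842 rows counted had reads in at least 1 library, so it says nothing that the rows of these lists had reads. By summed CPM, sham replicate 1 was the highest library for 0 of these lists, and injured replicate 2 was the highest for the choroid plexus, neuroendocrine and mesenchymal lists. Single miRNAs ranged over more than 4-fold in 1 case in the gut and liver list, 2 in the mesenchymal list and 2 in the erythrocyte list. The widest of these, the liver miRNA miR-122-5p, had 0.838, 21.6 and 16.5 CPM in injured replicates 1, 2 and 3, against 10.2, 27.0 and 12.8 CPM in sham replicates 1, 2 and 3. Like the family it was lowest in injured replicate 1, but its highest library was sham replicate 2, and its part in the family's level was not tested. The choroid plexus and ciliated ependyma list, led by miR-204-5p, held 852 to 926 CPM in injured and 822 to 925 CPM in sham animals, with 8 of 8 members tested and 0 called. The neuroendocrine list, led by miR-7a-5p, held 5418 to 16400 CPM in injured and 6449 to 11250 CPM in sham animals, with 5 of 5 tested and 0 called. The mesenchymal and mural list, led by smooth muscle miR-143-3p, held 22930 to 40190 CPM in injured and 19360 to 30180 CPM in sham animals, with 8 tested and 0 called. Of these 8, the groups did not overlap for 3, beside 7.87% of all miRNAs tested. They were miR-199a-3p, miR-199a-5p and miR-214-3p, each lower in injured animals, which the sum does not show. Their adjusted p-values from edgeR lay between 0.81 and 0.88. The first of them are strands of the same miRNA, so the 3 are not all separate observations. The gut and liver list, led by miR-192-5p, held 750 to 888 CPM in injured and 497 to 1035 CPM in sham animals, with 3 tested and 0 called.

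The erythrocyte list, led by red cell miR-451-5p, held 23.5 to 43.1 CPM in injured and 51.8 to 92.8 CPM in sham animals. The myeloid list, led by miR-142-5p, held 29.5 to 34.7 CPM in injured and 36.3 to 42.6 CPM in sham animals. Each had 3 members tested and 0 called, and the sums of injured animals lay below those of sham animals in both lists. Of the 3 tested members, the groups did not overlap for 1 in each list, the lead member, beside 7.87% of all miRNAs tested. In neither list was sham replicate 1 or injured replicate 2 the highest library. The cortical neuron list held 286000 to 327200 CPM in injured and 250300 to 344400 CPM in sham animals, a ratio of highest to lowest of 1.38, with 12 of 12 members tested and 0 called.

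**Figure D5:**
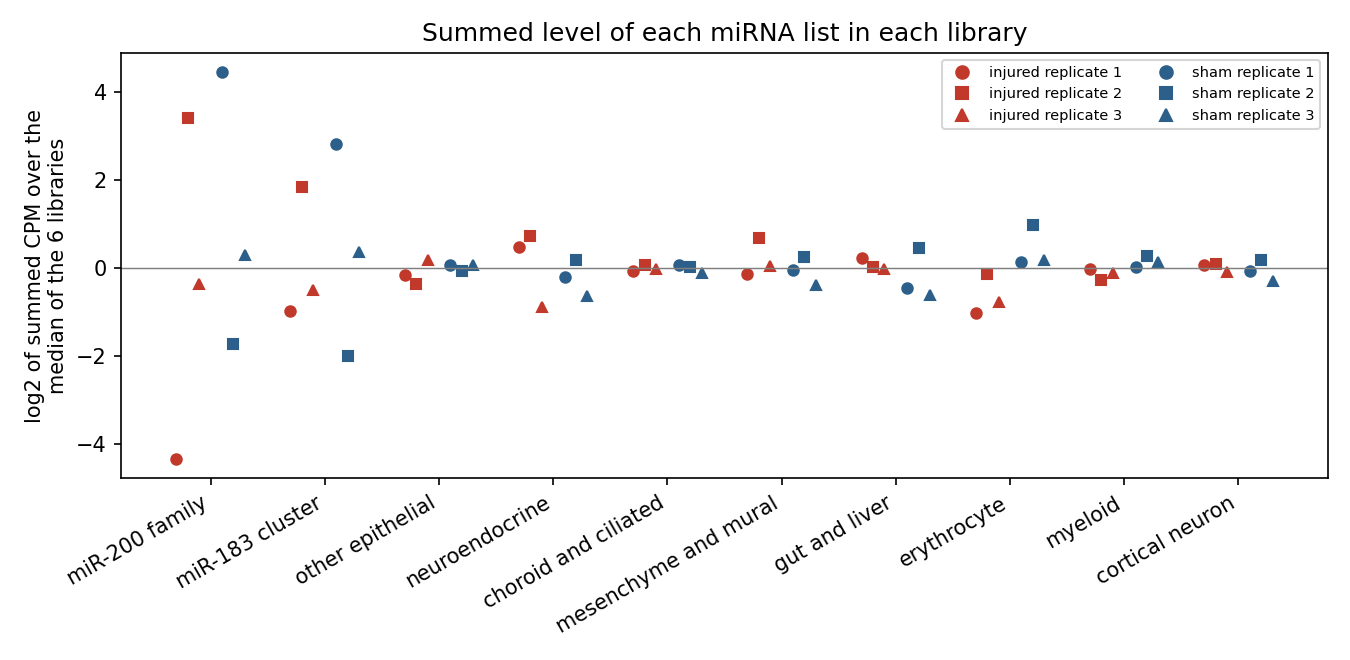
Log2 of the summed CPM of each miRNA list over its median across the 6 libraries, 1 point a library, for the miR-200 family and 9 lists of marker miRNAs. The family spans 8.19 to 3589 CPM and the miR-183 cluster 33.98 to 952 CPM, with sham replicate 1 and injured replicate 2 on top in both, while the choroid plexus list spans 822 to 926 CPM.

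The epithelial to mesenchymal balance that the family is known for was followed in 2 lists of miRNAs. The epithelial side, made of the family with miR-203a and miR-205, had 11 members, 9 of them tested, 0 called, and 8 with negative and 1 with positive log2 fold changes at a median of -0.94. Of these, 6 are the family's own values given above, whose sign turned without sham replicate 1, and the other 3 were -0.07 for miR-203a-3p, 0.20 for miR-203a-5p and -0.03 for miR-205. The mesenchymal side, with miR-199a, miR-214, miR-143, miR-145, miR-10b, miR-21, miR-155, miR-221 and miR-222, had 16 members, 14 tested, 0 called, and 8 negative and 6 positive at a median of -0.07. Of these 14, the groups did not overlap for 5, beside 7.87% of all miRNAs tested. Of the 5, miR-222-3p was higher in injured animals, and miR-155-5p, miR-199a-3p, miR-199a-5p and miR-214-3p were lower. The miR-199a strands and miR-214-3p are the same rows as in the mesenchymal and mural list above. On the epithelial side the groups did not overlap for 0 of 9. The sum of the mesenchymal side ran from 32640 to 48710 CPM in injured and from 26750 to 38710 CPM in sham animals, a ratio of highest to lowest library of 1.82. Messenger RNAs such as those of ZEB1 and ZEB2 were not analysed here.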

How the data were processed

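Small RNA was sequenced from 3 injured and 3 sham rats, using ligation-based libraries from total RNA with gel size selection per the labels' protocols. The submitters' processing notes name Bowtie and the rn6 build. Which counter, miRNA release and filters were applied is not given in the sources used here. Per the file headers, the authors deposited raw read counts and TPM values for each miRNA name. Each TPM equalled the count over the column total, scaled to 1000000, to within 4.66e-10, with no length term. The 842 rows included 676 with miRBase names. All 15 pairs of libraries differed by more than sampling noise (smallest chi-square per degree of freedom 235).

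Counts were tested with edgeR 4.0.16 in R 4.3.3 (TMM, filterByExpr with minimum count 10 and minimum total 15, quasi-likelihood F-test), with Benjamini-Hochberg adjustment over 534 miRNAs and calls at 0.05. The standard error was the absolute log2 fold change over the square root of F. Log2 CPM used a prior count of 2. Shares carry exact Clopper-Pearson 95% intervals from SciPy 1.17.1, and ratios of libraries carry intervals derived from them. Alternatives covered scaling, filter, DESeq2 1.42.0, limma 3.58.1 on log2(TPM + 1), left-out libraries and near-duplicate names. The members and lists were chosen with earlier results of these data known. All 8 rows that match the family's names were named, with the 6 other tested miRNAs of highest r and mean count of at least 10, the members of the miR-183 cluster and the most abundant member of each other list. Sequences came from RefSeq tables of GRCr8, by miRNA name.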

Additional observations from a re-analysis of the deposited data

How the results depend on the processing

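The direction of the family turned when sham replicate 1 alone was left out, but not when injured replicate 2 was left out with it. Over fits that each left out 1 library, log2 fold changes, injured over sham, ranged from -4.11 to 2.30 for miR-200a-3p, from -4.43 to 2.60 for miR-200b-3p, from -4.51 to 2.41 for miR-429, from -3.18 to 1.56 for miR-200c-3p, from -3.60 to 2.21 for miR-200a-5p and from -4.56 to 1.07 for miR-141-3p. All positive values came from the fit without sham replicate 1. Of 47 member values under the other alternatives (RLE, upper-quartile factors, library totals, no filter, DESeq2, limma on log2(TPM + 1), near-duplicate names, the 2 libraries highest in the family left out), 0 changed sign and 0 were called. Over all miRNAs, 0 were called under these settings, except that leaving out those 2 libraries gave 1, miR-293-5p, no member of the family. Cluster ratios and the miR-200a arm ratio moved by less than their counting interval with another pseudocount or, for the clusters, 3p rows only. Adding 0.5 to each count could hardly move a ratio beyond its own interval, so nothing is read from that setting. Summed CPM moved by less than the group SD with library totals or 1 name kept of each of 27 near-duplicate pairs. That SD was 975.1 CPM in injured and 2001 CPM in sham animals, so this could hardly fail in the low libraries. The names dropped held 20.63% to 23.25% of reads. Dropping them raised the sum on library totals from 230.3 to 300.0 CPM in sham replicate 3. In sham replicate 1 it rose from 3660 to 4758 CPM. miR-141-3p, miR-141-5p and miR-200b-5p are limited by depth, with 0 to 98 reads a library. No paired analysis was possible because the labels give no replicate numbers or pairing, and the numbers used here only name libraries in accession order.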
